A study of Rattus norvegicus with 16 samples.

Results

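Activity-induced immediate early genes were followed in hippocampus through 9 members chosen by gene ID: Jun (ENSRNOG00000026293), Junb (ENSRNOG00000042838), Fos (ENSRNOG00000008015), Egr1 (ENSRNOG00000019422), Egr2 (ENSRNOG00000000640), Nr4a1 (ENSRNOG00000007607), Arc (ENSRNOG00000043465), Btg2 (ENSRNOG00000003300) and Dusp1 (ENSRNOG00000003977). The list of members pairs each ID with its symbol. The count table holds IDs only, and the reference gene table matched 0 of its 32754 IDs, so the symbols could not be checked against it and markers of hippocampal neurons or of other cell types were not assessed here. All 9 members were in the table, and all 9 passed the filter on low counts, as did 15035 of 32754 genes in all. The samples were 16 hippocampi from male wild-type Fischer-344 rats, an inbred strain much used in aging research. Young rats (6 months) and old rats (20 months) had either stayed sedentary or undergone exercise training for 10 weeks, with 4 rats in each of the 4 groups. Behavioral testing ended 2 days before the hippocampus was removed. All groups, the sedentary controls included, therefore went through the tests. How long before tissue collection the last training session took place is not known here.

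Immediate early genes are transcribed within minutes of a stimulus, without new protein synthesis. In neurons, calcium entry during firing activates kinases that act on CREB, which binds the cAMP response element, and on serum response factor with its partner ELK1 at the CArG box. The transcripts are short-lived, so their level in hippocampus is widely read as a mark of recent neuronal activity. Some of the products are transcription factors (Fos, Jun, Junb, Egr1, Egr2, Nr4a1), others act at the synapse (Arc) or limit signaling and growth (Dusp1, Btg2).

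Promoters of the members were searched for a set list of motifs, as a description. The RefSeq promoter table (build GRCr8), which spans 250 bases before to 50 bases after a gene start, matched 6 of the 9 symbols: Egr1, Egr2, Nr4a1, Junb, Btg2 and Dusp1. Fos, Arc and Jun had no entry. Of the sequences below, Egr1 lies at chr18:26736828-26737127 on the + strand, Egr2 at chr20:21054392-21054691 on the - strand, Nr4a1 at chr7:134259888-134260187 on the + strand, Btg2 at chr13:48087641-48087940 on the - strand and Dusp1 at chr10:17184603-17184902 on the + strand. They are the 5 with a match longer than the TGACG core, which was the one match in Junb. Capitals mark matches to the cAMP response element TGACGTCA, to its core TGACG, which reads CGTCA when it lies on the opposite strand, to the CArG box, or to an EGR site (GCGTGGGCG or GCGGGGGCG). Both strands were searched.
Egr1: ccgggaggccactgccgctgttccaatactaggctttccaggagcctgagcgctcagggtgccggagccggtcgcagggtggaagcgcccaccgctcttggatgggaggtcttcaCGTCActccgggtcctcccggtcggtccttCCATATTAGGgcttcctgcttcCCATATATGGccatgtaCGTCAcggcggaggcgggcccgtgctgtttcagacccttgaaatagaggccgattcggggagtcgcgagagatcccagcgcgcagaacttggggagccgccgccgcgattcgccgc
Egr2: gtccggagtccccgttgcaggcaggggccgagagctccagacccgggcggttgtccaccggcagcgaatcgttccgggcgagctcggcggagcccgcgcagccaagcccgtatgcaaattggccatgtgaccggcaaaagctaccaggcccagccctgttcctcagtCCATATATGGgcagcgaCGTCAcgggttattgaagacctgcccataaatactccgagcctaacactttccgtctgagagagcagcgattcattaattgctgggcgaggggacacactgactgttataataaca
Nr4a1: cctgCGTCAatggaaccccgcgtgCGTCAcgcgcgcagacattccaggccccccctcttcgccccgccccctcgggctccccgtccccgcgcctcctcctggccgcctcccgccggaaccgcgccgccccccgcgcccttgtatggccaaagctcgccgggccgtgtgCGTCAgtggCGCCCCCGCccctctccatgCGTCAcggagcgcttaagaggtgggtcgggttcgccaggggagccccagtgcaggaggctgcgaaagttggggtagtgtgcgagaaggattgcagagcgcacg
Btg2: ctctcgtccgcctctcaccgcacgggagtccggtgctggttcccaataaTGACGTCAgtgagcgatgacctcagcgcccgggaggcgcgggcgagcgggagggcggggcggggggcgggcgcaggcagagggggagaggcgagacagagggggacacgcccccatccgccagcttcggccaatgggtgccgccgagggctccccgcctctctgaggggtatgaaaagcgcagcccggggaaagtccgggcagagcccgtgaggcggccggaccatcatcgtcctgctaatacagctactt
Dusp1: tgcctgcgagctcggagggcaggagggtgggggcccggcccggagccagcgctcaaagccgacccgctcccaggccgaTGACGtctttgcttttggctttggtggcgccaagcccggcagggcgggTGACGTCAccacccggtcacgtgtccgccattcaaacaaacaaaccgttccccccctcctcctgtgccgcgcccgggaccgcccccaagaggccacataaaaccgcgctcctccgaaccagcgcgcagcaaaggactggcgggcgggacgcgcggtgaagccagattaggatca

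The TGACG core was present in all 6 promoters, against 21.2% of the 33469 promoters of that length. The full TGACGTCA element was found in 2 of 6, Btg2 and Dusp1 (1.83% of all promoters), and it holds the core on each strand. The CArG box was found in 2 of 6, Egr1 and Egr2 (1.64%), and an EGR site in Nr4a1 alone (3.2%). Egr1 and Egr2 share the same CArG box, CCATATATGG, from base -83 to base -74 before the gene start, and the same core, read as CGTCA, from base -66 to base -62. Egr1 has a further CArG box from base -105 to base -96. Nr4a1 holds 4 cores, starting at base -246, -226, -82 and -53. These matches describe letters only, and neither binding nor use of a site was measured.

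Library totals ran from 8630396 to 14576687 counts. Levels are given in CPM, counts scaled to library size with TMM factors, and compare a gene between libraries, not one gene with another, because CPM is not divided by transcript length. Old sedentary replicate 3 stood apart from its group: it was the highest of the 4 old sedentary libraries for 9 of 9 members. It stood apart over all genes too. On the main axis of variation of all genes tested (first principal component, 46.9% of the variance) it scored 12.7. Old sedentary replicates 1, 2 and 4 scored 49.7, 55.9 and 52.9. How often a library takes such a place over all genes was not counted, here or for the ranks that follow. Old sedentary replicate 4 was the lowest of that group for 6 of 9. Young sedentary replicate 2 was the lowest young sedentary library for 9 of 9 members, and replicate 1 the highest for 8 of 9. Counts and fold changes that rest on old sedentary rats are therefore followed by their values without replicate 3 where these differ in call or by over 1.5 times. Replicate 3 was thus picked by the members' own levels. Leaving it out lowers the old sedentary mean of every member. Training differences in old rats then rise, and aging differences in sedentary rats fall, as a result of that choice. Those values describe how far a result turns on 1 library and are not separate support. In whole tissue, fewer cells of a type and less RNA per cell cannot be told apart.

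**Figure D1:**
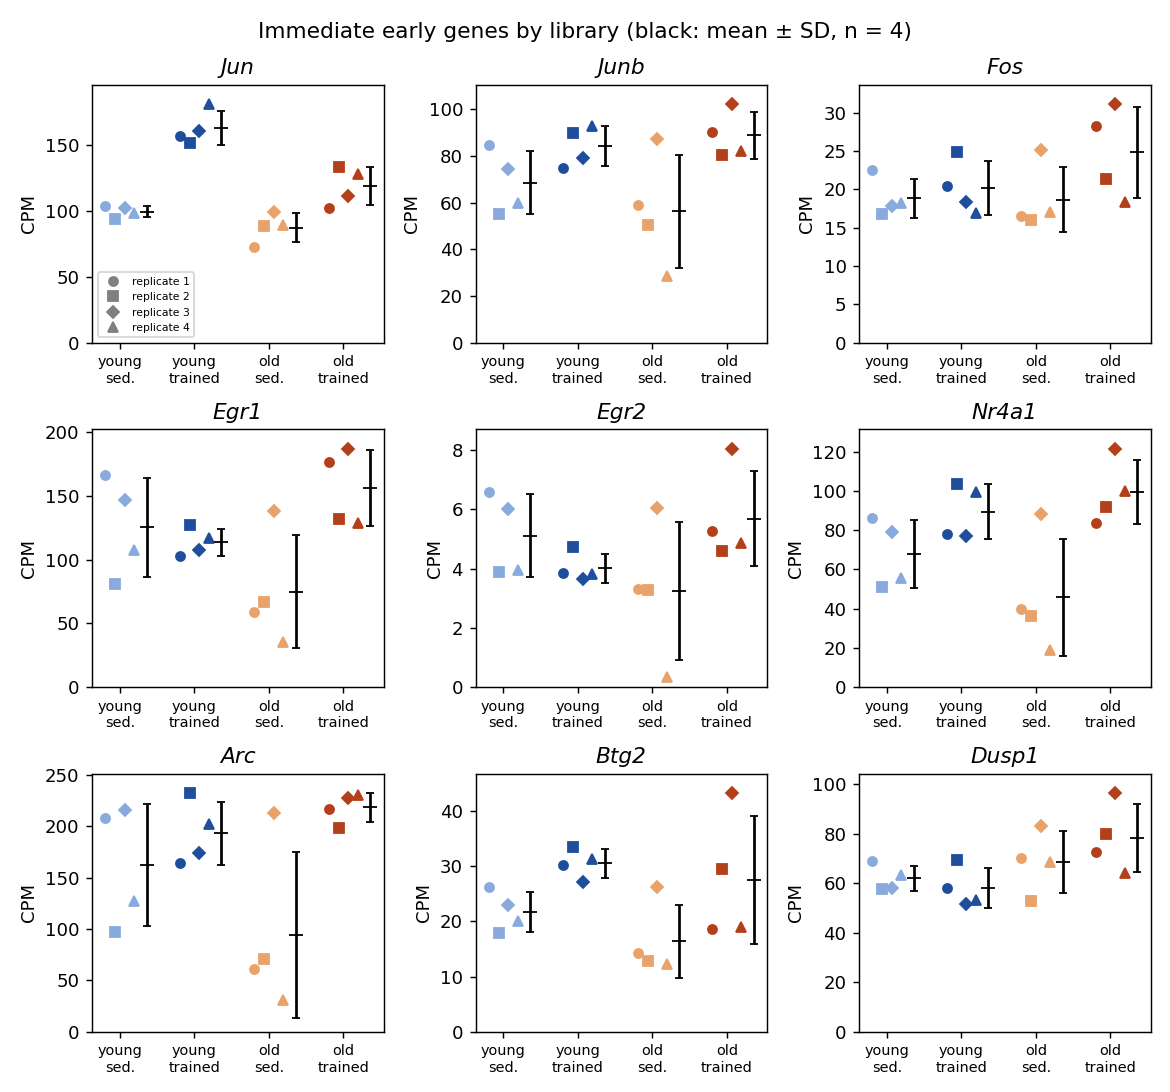
Level of each of the 9 immediate early genes (CPM, linear axes from 0) in each of the 16 libraries, by group. Points are libraries, shapes are replicate numbers and black bars are mean ± SD (n = 4). Jun is the gene whose trained and sedentary libraries do not overlap at either age, while for most other genes old sedentary replicate 3 (diamond) sits well above the rest of its group.

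Training went with a higher level of Jun at both ages, and in old rats also of Egr1 and Nr4a1. In young rats 1 of 9 members was called, Jun, which was higher in trained rats, where 17.1% of all genes were called and 6.78% were called higher. In old rats 3 of 9 were called, all higher in trained rats, where 24.1% of all genes were called and 11.5% were called higher. The other 6 members had positive log2 fold changes in old rats and did not pass. The median log2 fold change of the 9 members was 0.25 in young and 0.76 in old rats, beside -0.015 and -0.010 over all genes. From the lowest to the highest old sedentary library, levels spanned 1.36-fold for Jun, 6.80-fold for Arc and 17.3-fold for Egr2, whose lowest library held 4 counts.

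Jun, the transcription factor that pairs with Fos proteins to form AP-1, was the most evenly expressed member in sedentary rats. It stood at 104, 93.8, 103 and 98.5 CPM in young sedentary replicates 1 to 4 and at 157, 152, 161 and 181 CPM in young trained replicates 1 to 4. In old rats it stood at 73.1, 88.3, 99.3 and 89.3 CPM in sedentary and at 102, 134, 112 and 128 CPM in trained replicates. Every trained library was above every sedentary library of the same age, although old trained replicate 1 came within the young sedentary range. Such separation, trained above sedentary, was seen for 12.7% of genes at the younger age and 9.78% at the older. The log2 fold change was 0.71 in young rats (SE 0.097, 1.63-fold, adjusted p = 0.000513, edgeR quasi-likelihood test with Benjamini-Hochberg adjustment over 15035 genes). In old rats it was 0.44 (SE 0.097, 1.36-fold, edgeR adjusted p = 0.0045). In young rats Jun passed in all 26 alternative analyses. In old rats it passed in 24 of 26, the exceptions being a surrogate variable (log2 fold change 0.15, SE 0.18, edgeR adjusted p = 1) and old sedentary replicate 3 as the only old sedentary library (0.26, SE 0.14, edgeR adjusted p = 0.651).

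The 2 other AP-1 genes behaved less evenly. Junb, a JUN family member, stood at 84.7, 55.3, 74.3 and 59.8 CPM in young sedentary and at 74.7, 89.9, 79.1 and 92.7 CPM in young trained replicates 1 to 4. The old groups stood at 58.8, 50.5, 87.1 and 28.4 CPM in sedentary and at 90.2, 80.5, 102 and 82.0 CPM in trained replicates. Old sedentary replicate 3 lay within the old trained range, and the other 3 old sedentary libraries lay below it. The Junb log2 fold change with training was 0.30 (SE 0.24, edgeR adjusted p = 0.398) in young and 0.66 (SE 0.24, edgeR adjusted p = 0.0582) in old rats. Fos, the classical marker of activated neurons, did not pass at either age. It ran from 16.8 to 22.5 CPM in young sedentary, 16.9 to 24.9 in young trained, 16.1 to 25.1 in old sedentary and 18.4 to 31.1 in old trained rats. Its log2 fold change was 0.10 (SE 0.18, edgeR adjusted p = 0.725) in young and 0.41 (SE 0.18, edgeR adjusted p = 0.113) in old rats.

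Egr1, a zinc finger factor tied to synaptic plasticity, stood at 166, 80.5, 147 and 107 CPM in young sedentary and at 103, 127, 108 and 117 CPM in young trained replicates 1 to 4. At 20 months Egr1 stood at 59.2, 67.2, 139 and 35.1 CPM in sedentary and at 177, 132, 187 and 129 CPM in trained replicates. All young trained libraries lay within the young sedentary range, and in old rats only sedentary replicate 3 reached the trained range. The Egr1 log2 fold change with training was -0.14 in young rats (SE 0.32, edgeR adjusted p = 0.792) and 1.06 in old rats (SE 0.32, 2.08-fold, edgeR adjusted p = 0.0285). Egr2, a related factor, was a low-count gene, with 4 counts in old sedentary replicate 4 and 37 to 112 in the other libraries. It ran from 0.35 to 6.04 CPM in old sedentary and from 4.61 to 8.06 CPM in old trained rats, and from 3.89 to 6.60 CPM in young sedentary and 3.66 to 4.74 CPM in young trained rats. Its log2 fold change was -0.34 (SE 0.42, edgeR adjusted p = 0.604) in young and 0.82 (SE 0.42, edgeR adjusted p = 0.181) in old rats.

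Nr4a1, an orphan nuclear receptor, stood at 86.0, 51.0, 79.0 and 55.5 CPM in young sedentary and at 77.9, 103, 77.1 and 99.5 CPM in young trained replicates 1 to 4. For old rats the values were 39.8, 36.5, 88.4 and 19.1 CPM in sedentary and 83.7, 91.9, 122 and 99.8 CPM in trained replicates. Again 3 of 4 old sedentary libraries lay below the trained range and replicate 3 lay inside it. The Nr4a1 log2 fold change was 0.40 in young rats (SE 0.33, edgeR adjusted p = 0.412) and 1.12 in old rats (SE 0.33, 2.17-fold, edgeR adjusted p = 0.026).

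Arc, a synaptic protein needed for lasting plasticity, showed the widest range in sedentary rats apart from Egr2. It stood at 208, 97.3, 216 and 127 CPM in young sedentary and at 164, 232, 174 and 202 CPM in young trained replicates 1 to 4. Old rats stood at 61.3, 70.7, 213 and 31.3 CPM in sedentary replicates, and at 217, 199, 228 and 230 CPM in trained replicates, a 1.16-fold range. Old sedentary replicate 3 alone of its group lay within the trained range. The Arc log2 fold change in old rats was 1.22 (SE 0.43, edgeR adjusted p = 0.0535), the largest of the 9, with the widest SE, and it did not pass. In young rats it was 0.25 (SE 0.42, edgeR adjusted p = 0.705).

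Btg2, an antiproliferative coregulator, stood at 26.2, 17.8, 23.0 and 20.1 CPM in young sedentary and at 30.2, 33.4, 27.1 and 31.3 CPM in young trained replicates 1 to 4, with no overlap. Separation in that direction was seen for 12.7% of all genes in young rats. At 20 months Btg2 stood at 14.2, 12.8, 26.3 and 12.2 CPM in sedentary and at 18.7, 29.4, 43.2 and 19.0 CPM in trained replicates. The Btg2 log2 fold change was 0.49 in young rats (SE 0.27, edgeR adjusted p = 0.212) and 0.76 in old rats (SE 0.27, edgeR adjusted p = 0.0554). Both SEs rest on a spread shared by all groups. The SD of Btg2 log2 CPM was 0.24 in young sedentary, 0.13 in young trained, 0.51 in old sedentary and 0.58 in old trained rats. Dusp1, the phosphatase that switches off MAP kinases, ran from 57.8 to 68.8 CPM in young sedentary, 51.6 to 69.4 in young trained, 52.9 to 83.1 in old sedentary and 64.3 to 96.5 in old trained rats. Its log2 fold change with training was -0.093 (SE 0.14, edgeR adjusted p = 0.666) in young and 0.19 (SE 0.14, edgeR adjusted p = 0.349) in old rats.

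**Figure D2:**
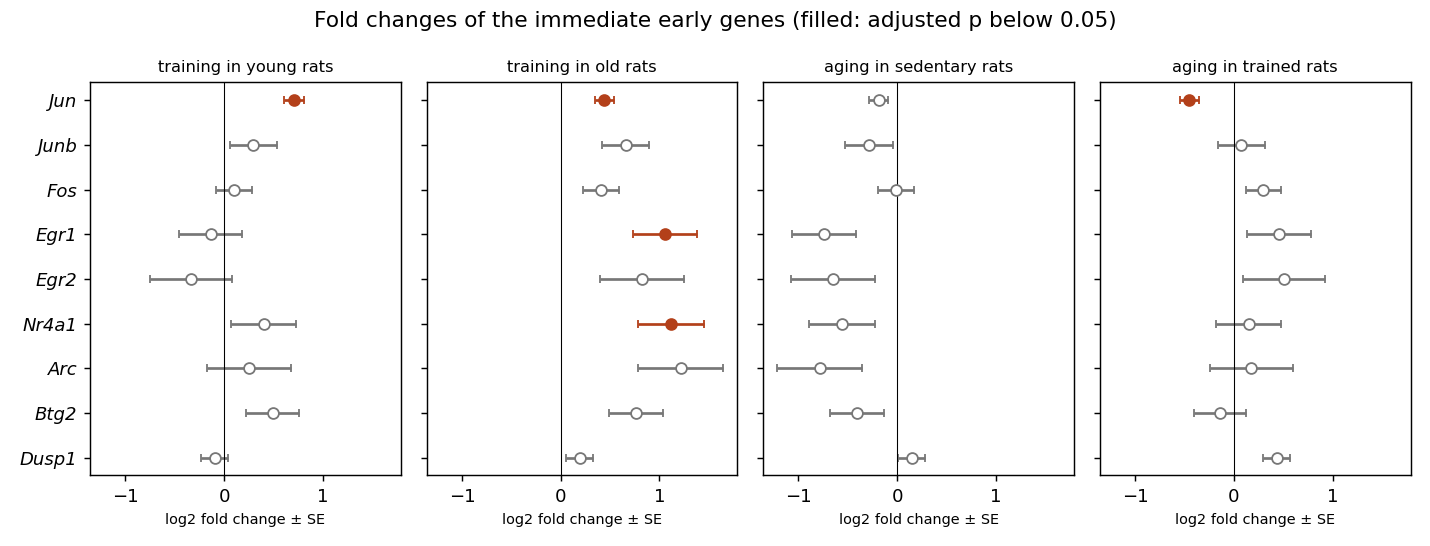
Log2 fold change ± SE of each member (edgeR, all 16 libraries) for training in young and old rats and for aging in sedentary and trained rats. Filled points passed at adjusted p below 0.05: Jun for training at both ages and for aging in trained rats, and Egr1 and Nr4a1 for training in old rats.

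The count in old rats turned on single libraries. When old sedentary replicate 3 was left out it was 8 of 9, the exception being Dusp1, where 4510 of 15174 genes were called, and the log2 fold changes of Arc, Nr4a1 and Egr1 were 2.01, 1.65 and 1.54 (edgeR adjusted p = 0.000208, 0.000217 and 0.000462). Those of Egr2, Btg2, Junb and Fos were 1.30, 1.09, 0.95 and 0.58 (edgeR adjusted p = 0.0264, 0.00363, 0.00241 and 0.0168). Jun stood at 0.51 (edgeR adjusted p = 0.00109) and Dusp1 at 0.30 (edgeR adjusted p = 0.119). Without old sedentary replicate 1, 2 or 4, or old trained replicate 3, it was 1 of 9, Jun in each case. Egr1 kept its call on leaving out 11 of the 16 libraries, failing without old sedentary replicates 1, 2 and 4 and old trained replicates 1 and 3. Nr4a1 also kept it for 11 of 16, failing without old sedentary replicates 1, 2 and 4 and old trained replicates 3 and 4. Over the 16 omissions the log2 fold change of Egr1 ran from 0.82 to 1.54 with edgeR adjusted p of at most 0.0799, and that of Nr4a1 from 0.86 to 1.65 with edgeR adjusted p of at most 0.0745. With old sedentary replicate 3 as the only old sedentary library, assumed to vary like the other groups, 0 of 9 members and 0 of 15557 genes passed in edgeR. The Egr1 log2 fold change was then 0.18 (SE 0.33, edgeR adjusted p = 0.963). With a surrogate variable, estimated from the counts to hold variation beyond age and training, Egr1 had a log2 fold change of -0.47 and Nr4a1 of -0.37 in old rats, so the direction reversed for both. Across libraries that variable lay between 0.12 and 0.22 in all 8 trained libraries, between -0.46 and -0.42 in old sedentary replicates 1, 2 and 4, and at -0.028 in old sedentary replicate 3, so it overlapped training.

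Averaged over age, 4 of 9 members were called and all 4 were higher in trained rats, where 33.9% of all genes were called and 15.9% were called higher. Jun rose by 0.58 on the log2 scale (SE 0.069, edgeR adjusted p = 3.06e-05), Nr4a1 by 0.76 (SE 0.23, edgeR adjusted p = 0.0218), Btg2 by 0.63 (SE 0.19, edgeR adjusted p = 0.0197) and Junb by 0.48 (SE 0.17, edgeR adjusted p = 0.0395). Jun, Nr4a1 and Btg2 passed on leaving out each of the 16 libraries in turn. Junb passed for 8 of 16, failing without young sedentary replicates 2 and 4, young trained replicates 2 and 4, old sedentary replicates 1 and 2 and old trained replicates 1 and 3. Leaving out old sedentary replicate 3 gave 7 of 9 members, where 5624 of 15174 genes were called. The 3 added were Arc (1.13, edgeR adjusted p = 0.000403), Egr1 (0.70, edgeR adjusted p = 0.00445) and Fos (0.34, edgeR adjusted p = 0.0291). With the surrogate variable 0 of 9 were called in edgeR (Jun 0.36, SE 0.13, edgeR adjusted p = 0.332), and 15 of all genes.

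A group of 12 genes found in sedentary libraries and nearly absent from trained ones (no trained library above 3 counts, sedentary mean 1 CPM or more) varied among the sedentary rats alongside these values. Its summed level was 24.1, 43.1, 8.99 and 47.4 CPM in young sedentary replicates 1 to 4 and 56.3, 73.0, 26.1 and 116 CPM in old sedentary replicates 1 to 4, against 0.32 to 1.20 CPM in trained libraries. Old sedentary replicate 4, with the highest sum, had the lowest Nr4a1 level of all 16 libraries, and the 3 sedentary libraries with the lowest sums had the 3 highest sedentary Nr4a1 levels. The same 3 libraries had the 3 highest sedentary Jun levels, at 104, 103 and 99.3 CPM, and Jun spanned 73.1 to 104 CPM over the 8 sedentary libraries, with its lowest level in old sedentary replicate 1. They were also highest for Egr1, Arc, Junb, Egr2 and Btg2, but not for Fos or Dusp1. Fos was 17.9 CPM in young sedentary replicate 3 and 18.2 CPM in replicate 4. Dusp1 was 58.2 CPM in young sedentary replicate 3, below 70.3 and 68.4 CPM in old sedentary replicates 1 and 4. The 3 libraries with the lowest sums also had the 3 lowest sedentary scores on the first principal component of all genes. Young sedentary replicates 1 and 3 and old sedentary replicate 3 scored 0.69, 1.34 and 12.7 there, and the other sedentary libraries 25.7 to 55.9. This ordering was thus not particular to the 12 genes, and the share of all genes that follow it was not counted. The part of this group, or of what it marks, in the results above was not tested.

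**Figure D3:**
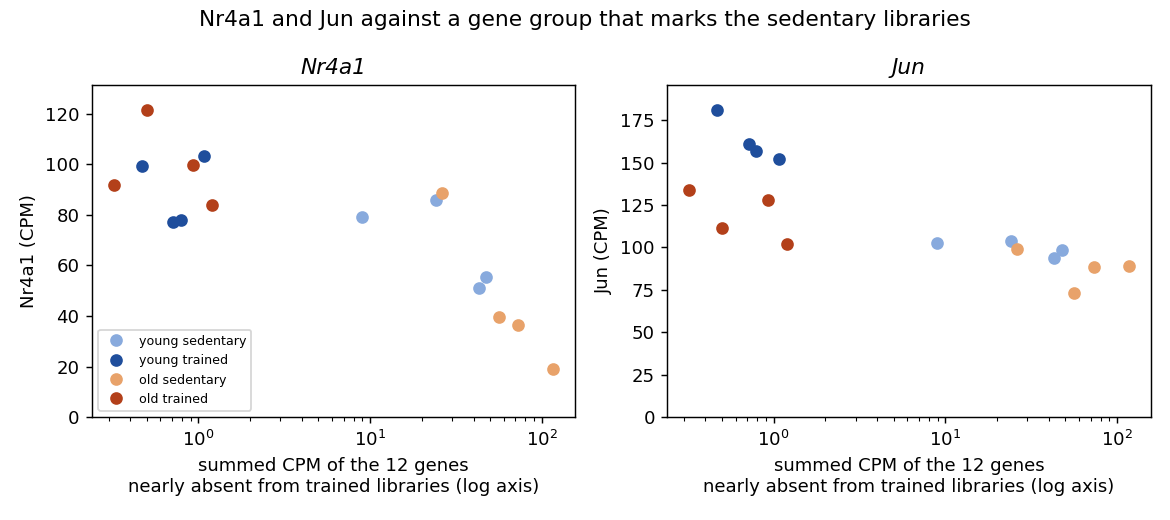
Nr4a1 (left) and Jun (right) in CPM against the summed CPM of 12 genes nearly absent from trained libraries (log axis), 1 point per library. The 3 sedentary libraries with the lowest sums (8.99, 24.1 and 26.1 CPM) hold the 3 highest sedentary levels of both genes, and over all 8 sedentary libraries Nr4a1 spans 19.1 to 88.4 CPM and Jun 73.1 to 104 CPM. Fos and Dusp1, not drawn here, do not follow this order.

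Whether training went with a different change at each age was tested by the interaction. It was called for 0 of 9 members and for 0% of all genes in edgeR, with 1 of 9 members, Egr1, at an unadjusted p below 0.05. It was called for 0 of 9 members also with the DESeq2 Wald test and limma voom, which called 44 and 0 of 15035 genes. Egr1 had an interaction of 1.20 on the log2 scale (SE 0.46, edgeR adjusted p = 0.308), Arc of 0.96 (SE 0.60, edgeR adjusted p = 0.486), Nr4a1 of 0.71 (SE 0.47, edgeR adjusted p = 0.508) and Jun of -0.27 (SE 0.14, edgeR adjusted p = 0.406). A larger change in old rats than in young rats was thus not shown for any member with all 16 libraries. Leaving out old sedentary replicate 3, 3 of 9 passed, where 582 of 15174 genes were called: Egr1 (1.67, edgeR adjusted p = 0.0156), Arc (1.75, edgeR adjusted p = 0.0226) and Nr4a1 (1.24, edgeR adjusted p = 0.048).

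Age was compared first in sedentary rats. There 0 of 9 members were called in edgeR, where 1.51% of all genes were called and 0.459% were called lower. Before adjustment, edgeR gave p below 0.05 for 1 of the 9, Egr1. With limma voom and with DESeq2 (Wald test) the count was again 0 of 9, while 457 and 909 of 15035 genes were called. Arc averaged 162 ± 59.1 CPM (SD, n = 4) in the young and 94.0 ± 81.0 CPM (SD, n = 4) in the old, with a log2 difference of -0.79 (SE 0.43, edgeR adjusted p = 0.325). Egr1 averaged 125 ± 38.7 and 75.0 ± 44.5 CPM (SD, n = 4), with a log2 difference of -0.74 (SE 0.32, edgeR adjusted p = 0.219). For Nr4a1 this difference was -0.56 (SE 0.33, edgeR adjusted p = 0.376), for Jun -0.19 (SE 0.097, edgeR adjusted p = 0.299) and for Dusp1 0.15 (SE 0.14, edgeR adjusted p = 0.606). On leaving out old sedentary replicate 3, 3 of 9 were called lower in old rats, where 2007 of 15174 genes were called: Arc (-1.57, edgeR adjusted p = 0.00318), Egr1 (-1.22, edgeR adjusted p = 0.0061) and Nr4a1 (-1.09, edgeR adjusted p = 0.00929). Dusp1 then stood at 0.042 (edgeR adjusted p = 0.897). This comparison shares the old sedentary libraries with the training comparison in old rats, so the opposite signs there and here are not independent.

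In trained rats 1 of 9 members was called for age, where 4.98% of all genes were called and 1.65% were called lower. Jun averaged 163 ± 12.9 CPM (SD, n = 4) at the younger age and 119 ± 14.6 CPM (SD, n = 4) at the older, and the groups did not overlap, as was so for 8.48% of all genes in that direction. Jun thus fell by 0.45 on the log2 scale (SE 0.097, edgeR adjusted p = 0.0147). It failed without young trained replicate 4 (-0.40, edgeR adjusted p = 0.0548) and without old trained replicate 1 (-0.40, edgeR adjusted p = 0.0503). Dusp1 did not pass (0.43, SE 0.14, edgeR adjusted p = 0.0776). Egr1 was not called either, although its old trained libraries all lay above the young trained ones, a separation seen for 8.47% of all genes in that direction. Averaged over training, 1 of 9 members was called for age, where 10.5% of all genes were called and 5.03% were called lower. Jun fell by 0.32 (SE 0.069, edgeR adjusted p = 0.00895) and passed on leaving out each library. Leaving out old sedentary replicate 3 gave 2 of 9 members lower, Jun (-0.35, edgeR adjusted p = 0.00197) and Arc (-0.70, edgeR adjusted p = 0.0225), where 2452 of 15174 genes were called. With old sedentary replicate 3 alone in its group Jun did not pass (-0.22, SE 0.081, edgeR adjusted p = 0.224), nor with the surrogate variable (-0.25, SE 0.071, edgeR adjusted p = 0.0523). Dusp1 did not pass (0.29, SE 0.097, edgeR adjusted p = 0.0664). On leaving out each library, its log2 difference ran from 0.22 to 0.34 and its edgeR adjusted p from 0.0275 to 0.157. Without young trained replicate 2, old sedentary replicate 2 or old trained replicate 4, 1 member was called higher in old rats. There 1254 of 15153, 1280 of 15128 and 1418 of 15158 genes were called.

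Ordered by mean CPM, old sedentary rats had the lowest level of 8 of 9 members, the exception being Dusp1, which was lowest in young trained rats. The share of all genes lowest in old sedentary rats was not counted. Most members varied together, so the 8 are not separate observations. Neighbouring groups in that order overlapped for every gene except Jun, whose young trained libraries (152 to 181 CPM) all lay above the old trained libraries (102 to 134 CPM). The spread between rats differed between groups. The median SD of log2 CPM over the 9 members was 0.67 in old sedentary rats, 0.28 in young sedentary, 0.25 in old trained and 0.16 in young trained rats. Over all 15035 genes it was 0.20, 0.14, 0.15 and 0.15 in the same order. The edgeR SEs and p-values draw on the spread of all groups, so they need not match the spread of the groups compared.

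**Figure D4:**
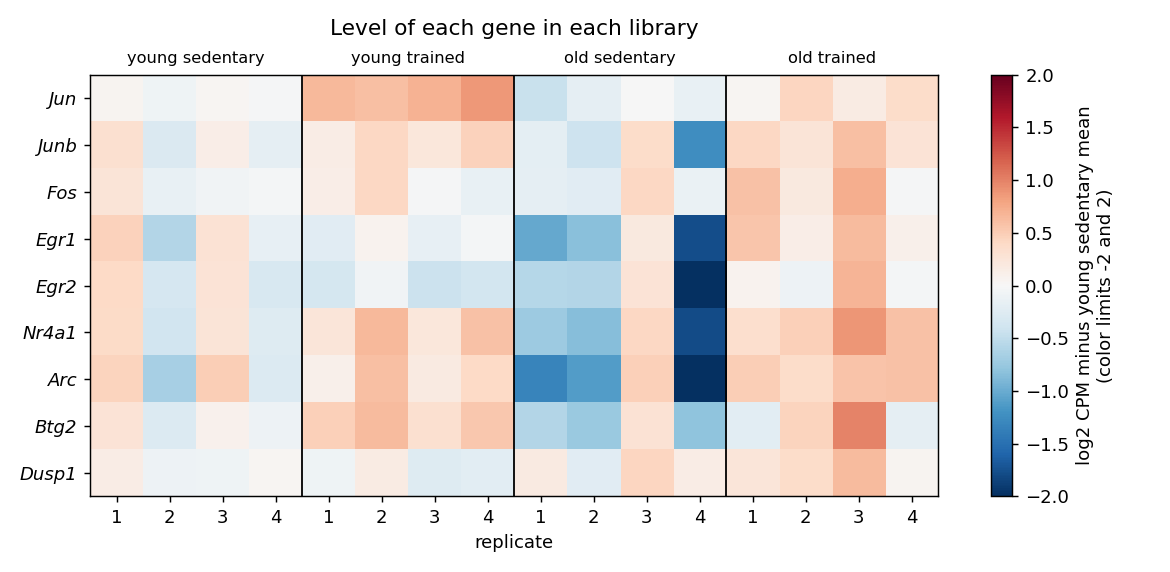
Log2 CPM of each member in each library minus the young sedentary mean of that gene, on a color scale limited to -2 and 2 (red higher, blue lower). Within old sedentary rats replicates 1, 2 and 4 are blue for most genes and replicate 3 is pale red or near white, whereas in the Jun row the young trained libraries are the reddest.

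Members also varied together from rat to rat within groups. For each gene the deviations of log2 CPM from the group means were taken over the 16 libraries, which share their scaling and depth. Of the 36 pairs of members, 34 had a positive Pearson correlation, with a median of 0.61 and a range of -0.17 to 0.96. Leaving out old sedentary replicate 3, the median was 0.36, and 30 of 36 were positive. Over the 12 libraries of the other groups it was 0.58. Set against the mean of the other members, the correlation was 0.95 for Nr4a1, 0.93 for Egr1, 0.91 for Arc, 0.89 for Junb, 0.82 for Btg2, 0.77 for Egr2, 0.64 for Fos, 0.54 for Dusp1 and 0.16 for Jun. Without old sedentary replicate 3 it was 0.89 for Nr4a1, 0.87 for Egr1, 0.84 for Junb, 0.79 for Arc, 0.71 for Egr2, 0.66 for Btg2, 0.40 for Fos, 0.31 for Dusp1 and -0.26 for Jun, so the sign of Jun reversed. Among 13378 genes outside the list whose mean log2 CPM was 1 or more, the median correlation with the mean of the members was -0.011. The gene outside the list with the highest value was ENSRNOG00000001139, at 0.94, followed by ENSRNOG00000001886, at 0.93. On leaving out old sedentary replicate 3 both stood at 0.83, and 3 and 2 outside genes respectively had higher values. Without subtracting group means they stood at 0.86 and 0.84, with 138 and 241 outside genes higher, so their place depends on the setting. ENSRNOG00000001139 ran from 104 to 137 CPM in old sedentary, 127 to 141 in young sedentary, 143 to 157 in old trained and 156 to 173 CPM in young trained rats, highest in old sedentary replicate 3 within its group.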

How the data were processed

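Poly(A) RNA of bulk hippocampus was sequenced on an Illumina HiSeq, per the labels. The authors deposited unnormalized read counts for 32754 Ensembl IDs. Build Rnor_6.0 and the tools HTSeq, TopHat2 2.1.1, Trimmomatic, FastQC, SAMtools and DESeq2 appear in the submitters' processing notes. No source used here states the strand setting, so overlapping and antisense genes are uncertain.

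Counts were filtered with filterByExpr, scaled by TMM and fitted over all 16 libraries with 1 mean per group (edgeR 4.0.16, R 4.3.3, robust glmQLFit, glmQLFTest, 2-sided). A gene was called at Benjamini-Hochberg adjusted p below 0.05 over 15035 genes. SE is the size of the log2 fold change divided by the square root of F. Log2 CPM used a prior count of 2. Each library is a separate rat, per the labels. Alternatives were voom with quality weights (limma 3.58.1), DESeq2 1.42.0 (size factors, Wald test), other filters, a replicate block, leaving out each library, only the 8 libraries compared and sva 3.50.0.

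The members and lists were chosen with earlier results of these data known. All 9 members are named by rule, with the 2 outside genes most like them. The further gene lists, by symbol, matched no ID and were not used. The lane of a library is unknown here, so whether lane followed group was not tested.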

Additional observations from a re-analysis of the deposited data

Results flagged for a closer look

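In 2 of 36 sets of 4 libraries (9 members in 4 groups), 1 library lay far from the others, where chance marks about 1.8 of 36 independent sets. Both were old sedentary replicate 3. Fos stood there at 25.1 CPM against 16.1 to 17.0 CPM in the other old sedentary libraries, and Btg2 at 26.3 CPM against 12.2 to 14.2 CPM.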

How the results depend on the processing

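Of 900 values of 35 member fold changes under alternatives, 793 kept direction and side of the threshold, 36 lost the call, 42 gained it and 29 reversed. The cause of the changes was not tested. For training in old rats, 3 of 9 members became 6 with the DESeq2 Wald test, limma voom or the replicate block, 1 with no filter or only the 8 libraries compared, and 1 to 8 on leaving out 1 library. The first 3 of these settings called 3818, 3745 and 3743 of 15035 genes. No filter called 3301 of 23249 and the 8 libraries compared 2345 of 14621. With 1 library left out, calls ran from 2635 of 15128 to 4510 of 15174 genes. Leaving out 1 library gave 1 for training in young rats, 0 to 3 for aging in sedentary rats, 0 to 1 for aging in trained rats, 0 to 3 for the interaction, 3 to 7 for training averaged over age and 1 to 2 for aging averaged over training. In the same order, all genes called ran from 1289 to 2992, 38 to 2007 and 237 to 1049. From the interaction on, they ran from 0 to 582, 4372 to 5624 and 950 to 2452. Each time 15128 to 15186 genes were tested. Training in young rats gave 2 with limma voom, only the 8 libraries compared or the surrogate variable. There 4393 of 15035, 2850 of 14586 and 657 of 15035 genes were called. Aging in trained rats gave 2 with the DESeq2 Wald test, where 1244 of 15035 genes were called. Training averaged over age gave 2 with no filter, where 4801 of 23249 genes were called.

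Chosen after the data were seen were the surrogate variable with age and training in the null model and the settings that leave out several old sedentary libraries. Leaving out each library in turn was planned. The weight given to old sedentary replicate 3 was chosen afterwards, from the levels of the members themselves. The planned surrogate variable, with an intercept-only null model, was nonzero in 1 library and was not run. With the surrogate variable the counts were 0 for training in old rats, 0 for training averaged over age and 0 for aging averaged over training in edgeR. Of all 15035 genes 2, 15 and 638 were called there, so the first 2 counts of 0 are not particular to the members. Its reversed log2 fold changes in young rats were -0.14 for Fos, -0.71 for Arc, -0.20 for Junb and -0.32 for Nr4a1 with training, and Egr1 (-0.85) was called lower. In old rats they were -0.11 for Fos, -0.47 for Egr1, -0.78 for Arc, -0.39 for Junb, -0.37 for Nr4a1, -0.63 for Egr2, -0.075 for Dusp1 and -0.18 for Btg2. Aging in sedentary rats became 0.12 for Arc and 0.12 for Nr4a1, the interaction -0.071 for Arc and -0.051 for Nr4a1, and training averaged over age -0.29 for Junb, -0.34 for Nr4a1 and -0.068 for Btg2.

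With old sedentary replicate 3 as the only old sedentary library, that group had no spread of its own. For that setting only the log2 fold changes that reversed are listed in this paragraph. Training in old rats became -0.015 for Fos, -0.073 for Egr2 and -0.080 for Dusp1, aging in sedentary rats 0.14 for Egr1, 0.39 for Arc and 0.38 for Nr4a1, and the interaction -0.20 for Arc and -0.22 for Nr4a1. With old sedentary replicates 3 and 4 both left out the counts were 8 for training in old rats, 3 for aging in sedentary rats, 2 for the interaction, 7 for training averaged over age and 2 for aging averaged over training, and Dusp1 became -0.021 for aging in sedentary rats. In the same order, 3946, 1353, 429, 5345 and 2151 of 15331 genes were called. Egr1 for training in young rats ran from -0.28 to 0.032 on leaving out 1 library. The correlation of Jun with the mean of the other members was -0.26 without old sedentary replicate 3.

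The replicate numbers share no stated litter, batch or day. Same-numbered libraries of different groups had correlations of -0.25 to 0.48 in their deviations, above 0.1 in 12 of 24 pairs, and a library correlated best with its own number in 23 of 48 comparisons, where 12 would be the number if replicate numbers shared nothing. The 48 comparisons reuse the same libraries and are not independent. Whether same-numbered libraries share a factor was not tested. The replicate block gave 6 of 9 members for training in old rats and 6 for training averaged over age, where 3743 and 5266 of 15035 genes were called. Egr2, with 4 counts in 1 library, is the member most limited by depth.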
